A study of Homo sapiens with 6 samples.

Results

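HuR sites that lie close together on 1 strand are described here. The list used is the authors' combined list of HuR intervals limited at p 0.05, called the p-filtered list below, in which each interval has a LOD score, the authors' measure of how strongly it stands out. Each strand was divided into fixed windows of 10 kb from position 0, an interval was placed by its midpoint, and a window holding 20 or more intervals was called crowded. The members are the 53785 intervals of up to 200 nt in crowded windows, out of 373845 intervals in the list. A further 457 intervals in these windows were wider than 200 nt and are not members, although they counted towards the 20. The members were chosen by the number of measured intervals per window and by interval width, so the number of intervals, their spacing, their LOD scores and their overlap with the replicates that make up the list are descriptions with no test.

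All samples come from HEK293, a widely used line of human embryonic kidney origin, and the labels name no treatment. Micrococcal nuclease trimmed the RNA in the lysates, which were then combined and shared out to immunoprecipitations with the mouse anti-HuR antibody 3A2 (3 samples) or with normal mouse serum as negative control (3 samples). Site lists of HuR replicates 1, 2 and 3 were used, and the serum samples were not analysed here, since the files used hold values of HuR samples only. Because the digested lysate was common to them, an SD with n = 3 below covers technical spread. Read depth is unknown, the log base of the LOD score is not known, and the size of a score was compared only within 1 list. Replicate 1 has far fewer sites than the other replicates, with 186157 against 405048 in replicate 2 and 550681 in replicate 3.

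HuR, encoded by ELAVL1, is an RNA-binding protein of the ELAV family that recognises U-rich and AU-rich RNA. It binds introns and untranslated regions of messenger RNA, shuttles between nucleus and cytoplasm, and is best known for stabilising the messages it binds. A transcript can carry many such stretches, so that several copies of the protein may sit on 1 RNA. An immunoprecipitation also depends on how abundant each RNA is, and a window full of sites can therefore hold an abundant RNA, an RNA rich in binding stretches, or both, which cannot be told apart in these lists. Coordinates are 1-based on hg19. Genes and sequences are not given, because an annotation and a genome of that build were not used here.

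Crowded windows were rare but held a sizeable share of the HuR intervals. Of 71168 windows with at least 1 p-filtered interval, 2224 were crowded, or 3.13%, and the median window held 3 intervals. Members made up 14.4% of the list, and intervals of any width in crowded windows covered 17.1% of its bases. The median crowded window held 23 members and 1350 nt of called sequence, with a range from 720 to 3955 nt, against a median of 660 nt in the 9976 windows with 10 to 19 intervals. Most crowded windows were near the limit, with 1407 (63.3%) holding 20 to 24 intervals, 304 holding 30 or more and 25 holding 40 or more.

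**Figure D1:**
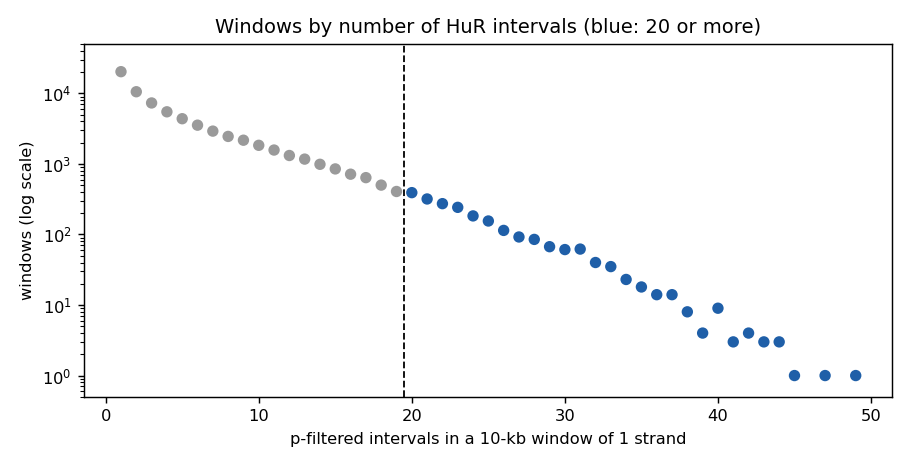
Number of 10-kb windows (vertical axis, log scale) by the number of p-filtered intervals they hold (horizontal axis), with grey points below the limit, blue points at 20 or more, and a dashed line at the limit. The points fall without a break across the limit, from 20252 windows with 1 interval to 1 window with 49.

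Windows just inside and just outside the limit had close values. In the 709 windows with 20 to 21 intervals the median LOD was 10.9, the median width was 50 nt and 51.7% of the narrow intervals (up to 200 nt) were found in all 3 replicates. In the 906 windows with 18 to 19 intervals these values were 10.8, 50 nt and 50.2%.

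Every numbered chromosome and chromosome X held crowded windows, while chromosome Y, with 192 narrow intervals, and the mitochondrial genome, with 18, held none. Chromosome 1 had the most, with 252 crowded windows and 6130 members, followed by chromosome 2 with 227 and chromosome 6 with 197. As a share of the windows with an interval, chromosome 5 came first with 4.40%, then chromosome 18 with 4.32% and chromosome 6 with 4.22%. The lowest shares among the chromosomes with a crowded window were 1.08% on chromosome 22, 1.50% on chromosome 9 and 1.70% on chromosome 11. Members made up 18.9% of the narrow intervals of chromosome X and 6.23% of those of chromosome 22. Chromosome 19 had a share of crowded windows of 2.64%, below the 3.13% over all chromosomes, yet 16.0% of its narrow intervals were members. Gene density, RNA levels and chromosome copy number in this line were not taken into account. The plus strand held 1160 of the crowded windows, or 52.2%, near its 51.0% of all windows with an interval.

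The window with the most members was on chromosome 12:69660001-69670000 on the plus strand, with 49 members. Its members had a median LOD of 11.8, from 3.35 to 26.7, and a median gap of 85 nt. Replicates 1, 2 and 3 had 34, 39 and 52 sites there. It was followed by chromosome 8:28420001-28430000 on the plus strand with 46 members and 41, 37 and 38 sites, the window of the leading 10 whose replicate 1 count exceeded that of both other replicates. Chromosome X:110940001-110950000 on the plus strand had 45 members, a median LOD of 14.2 and a median gap of 55 nt, the shortest of the leading 10. On chromosome 7:63970001-63980000 on the minus strand there were 43 members, with 34, 38 and 39 replicate sites. The window at chromosome 1:168220001-168230000 on the plus strand also had 43, with 33, 36 and 37 sites. In these 5 windows replicate 1 thus had at least 31 sites, well above its median of 14 per crowded window.

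The other windows of the leading 10 had 42 or 43 members each. They lay on chromosome 19:21910001-21920000 (minus), chromosome 1:193000001-193010000 (minus), chromosome 3:140680001-140690000 (plus), chromosome 10:135220001-135230000 (plus) and chromosome 19:30510001-30520000 (plus). The chromosome 1 window of these differed between replicates, with 18, 36 and 43 sites, and had the lowest share of members in all 3 replicates of the 10, at 41.9%. The chromosome 3 window had 26, 52 and 54 sites. The minus-strand window on chromosome 19 packed 11 intervals into 1 kb, the most of any crowded window. Of the 10 windows, 8 adjoined another crowded window, and the exceptions were those on chromosomes 8 and 10.

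**Figure D2:**
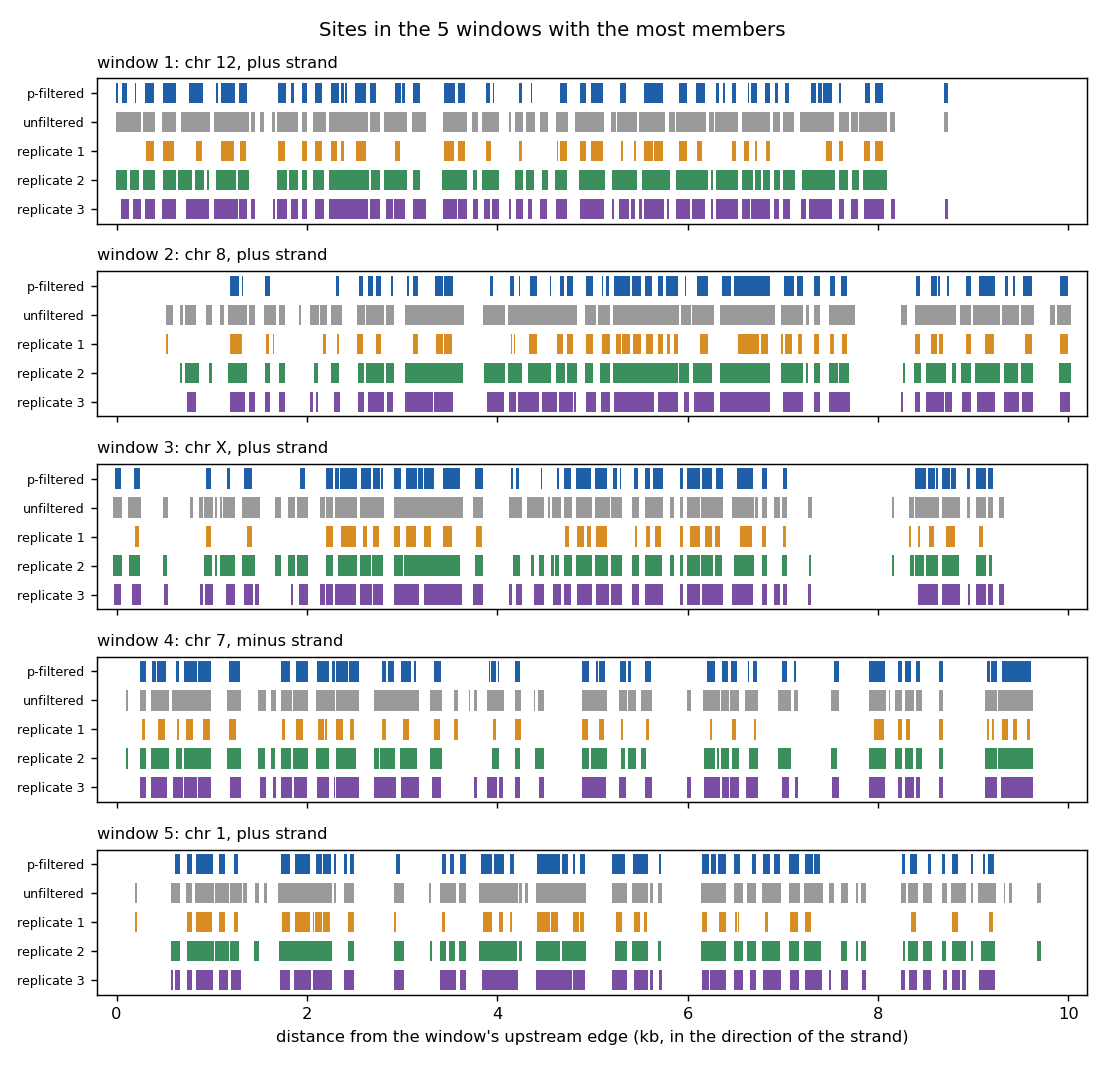
Positions of sites in the 5 windows with the most members, each read from its upstream edge (horizontal axis, kb), with 1 row for the p-filtered intervals, 1 for the combined sites before the p filter and 1 for each replicate. Bars are drawn to scale, and the 49 to 44 p-filtered intervals of each window fall along most of its 10 kb and often lie inside longer replicate 2, replicate 3 and unfiltered sites.

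Most crowded windows had no crowded neighbour, but adjoining ones were common for so rare a class. Of the crowded windows, 35.3% adjoined another, where 3.13% of all windows with an interval were crowded. The 2224 crowded windows formed 1769 places: 1438 windows with no crowded neighbour on their strand, or 64.7% of all, and 331 runs of 2 or more adjoining windows, which held 19616 members (36.5%). Of the runs, 241 had 2 windows, 63 had 3, 21 had 4, 5 had 5 and 1 had 6. With window edges moved by 5 kb there were 2211 crowded windows and 323 runs, so the number did not hinge on where the windows began.

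The 5 longest runs are named here, from 6 with 5 or more windows. The first covered 60 kb at chromosome 12:22780001-22840000 on the plus strand, with 154 members. Its 6 windows, read in the direction of the strand, held 24, 20, 32, 31, 27 and 24 intervals, and replicate 1 had 7, 13, 18, 24, 17 and 15 sites in them. Crowding and replicate 1 sites were therefore highest in the middle of this run. At chromosome 19:30480001-30530000 on the plus strand a run of 50 kb had 161 members, the most of these 5 runs, with 28, 22, 31, 42 and 40 intervals per window. The run at chromosome X:73160001-73210000 on the plus strand had 144 members, the highest median LOD of the 5 runs (12.8) and the highest share of members in all 3 replicates (61.1%). A window of it with 40 intervals had a median LOD of 15.2 and 36, 34 and 36 sites in the 3 replicates. On the plus strand of chromosome 5, 145840001-145890000 had 147 members, and on the minus strand of chromosome 7, 126980001-127030000 had 120, with median LOD scores of 11.6 and 10.7. In the chromosome 7 run the middle window held the most intervals, 33, and had the lowest median LOD, 8.49, so number and score did not go together there.

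Over the 90 runs of 3 or more windows there was little gradient along the strand. The first, inner and last windows held medians of 24, 25 and 24 intervals, with median LOD scores of 11.7, 11.8 and 11.7. The first window held more intervals than the last in 34 runs, fewer in 47 and the same number in 9.

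Outside the crowded places the 2 sides differed. Of the 1769 places, 112 (6.33%) had no interval in the 10-kb window just upstream, and 316 (17.9%) had none just downstream. The upstream window held a mean of 9.82 intervals and the downstream window 8.06, with medians of 10 and 8. Windows with 10 to 19 intervals, whose neighbours could be crowded, had means of 8.55 upstream and 8.79 downstream. This is no separate comparison, since many of them flank crowded places. Of the places, 945 had 10 or more intervals in the upstream window and 760 in the downstream window. More places had the higher count upstream (996) than downstream (695), and 78 had equal counts. The replicate lists gave the same direction: the mean number of sites in the upstream window exceeded that downstream by 0.454 in replicate 1, 1.99 in replicate 2 and 2.69 in replicate 3 (1.71 ± 1.14, mean and SD, n = 3). The downstream window was empty for 24.8%, 18% and 14.6% of places in these lists and the upstream window for 11.2%, 6.05% and 5.20%. In the p-filtered list the difference between the empty shares was 11.5 percentage points. It was 4.61 for another set of places, formed by the 1152 windows still crowded when intervals inside the same unfiltered site counted once.

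Crowded places lay within longer stretches of occupied windows, and nearer their downstream end. Windows with at least 1 interval ran on unbroken around a place for a median of 8 windows in all, the place included, with a 5th to 95th percentile from 2 to 20. There were a median of 3 occupied windows upstream and 2 downstream, with means of 4.74 and 3.40. The upstream side was the longer in 993 places and the downstream side in 579. A stretch of 2 windows or fewer enclosed 93 of the places. The opposite strand was mostly bare: 2023 crowded windows (91.0%) had no interval on it, close to the 89.1% of windows with 10 to 19 intervals, and 23 had 5 or more. A single position was crowded on both strands, which gives 2 crowded windows.

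Neighbouring intervals in a crowded window lay a median of 170 nt apart, with a 25th to 75th percentile from 65 to 395 nt. In windows with 10 to 19 intervals the median gap was 315 nt. The limit of 20 intervals bounds the mean gap in a crowded window, so this difference follows from the rule. Gaps were uneven, as 34.7% were under 100 nt and 5.72% were 1000 nt or more. Within a window the coefficient of variation of the gaps had a median of 1.13 and exceeded 1 in 1558 windows (70.1%). The densest 1 kb of a crowded window held a median of 6 intervals, and 19 windows had 10 or more in 1 kb. The first to the last interval spanned a median of 9045 nt, and 65 windows (2.92%) had an empty stretch of 3000 nt or more. A long span is likely with so many intervals in 10 kb, and the median was 8180 nt in windows with 10 to 19.

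**Figure D3:**
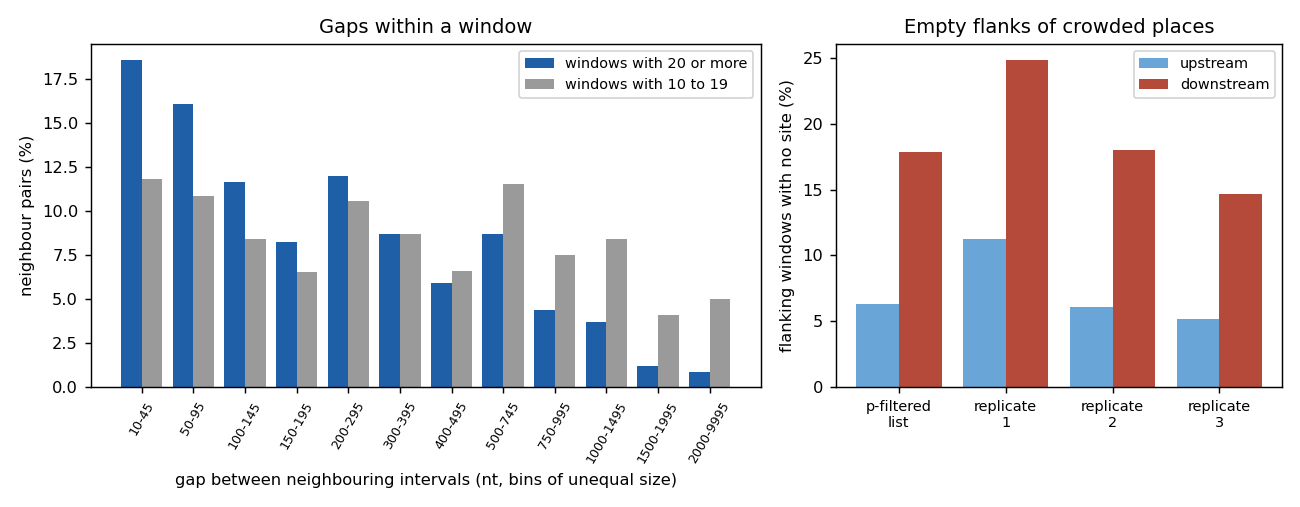
Left, share of neighbouring interval pairs (vertical axis, %) by the gap between them (horizontal axis, nt, bins of unequal size), in windows with 20 or more intervals (blue) and with 10 to 19 (grey). Right, share of the windows just upstream and downstream of the 1769 crowded places that hold no site (vertical axis, %) in the p-filtered list and each replicate list, where the downstream bar is the higher in all 4 lists, at 17.9% against 6.33% in the p-filtered list.

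Many members lay together inside 1 longer site of the unfiltered list. The combined list before the p filter holds what are called unfiltered sites here, and every member lay wholly inside 1 of them. How the p-filtered intervals were derived is not given in the sources, so whether a longer site was divided was not tested. Of the members, 16579 (30.8%) shared their unfiltered site with another p-filtered interval, against 11.1% of the other narrow intervals, and 1 unfiltered site held 18 intervals. Unfiltered sites behind such members had a median width of 230 nt, and those behind members standing alone had 80 nt. Pairs of neighbours within 1 unfiltered site made up 18.5% of all neighbour pairs in crowded windows and were a median of 30 nt apart, against 235 nt for other pairs. The shortest gap in the list, 10 nt, occurred 1512 times in crowded windows, and 96.2% of these lay within 1 unfiltered site.

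Counted by distinct unfiltered sites, 1152 of the 2224 crowded windows (51.8%) still held 20 or more. The window at chromosome 12:69660001-69670000 had 49 intervals in 29 distinct unfiltered sites. At chromosome 1:193000001-193010000 the 43 intervals lay in 38, and at chromosome 8:28420001-28430000 the 47 lay in 24. At chromosome 1:28820001-28830000 on the plus strand 20 intervals lay in 10 unfiltered sites. Crowded windows nonetheless held many unfiltered sites, with a median of 30 and a range from 12 to 50, and 48 windows had fewer than 20. The p filter left an interval in 65.5% of the 67972 unfiltered sites there (95% Wilson interval 65.2 to 65.9, counting error only), against 60.4% in windows with 10 to 19 intervals and 50.8% of unfiltered sites outside crowded windows. The filter chose the intervals that define these windows, so a higher share inside them is built in. Sites it removed from crowded windows had a median LOD of 3.91 on the unfiltered list's scale, and those it kept had 9.52.

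Members had higher LOD scores than other narrow intervals, by a modest amount. The median was 11.2 for members and 9.68 for the 318922 others, a ratio of 1.15, with 25th to 75th percentiles of 8.12 to 15 and 7.50 to 12.8. The median rose step by step with crowding, from 8.48 for lone intervals to 9.65 in windows with 5 to 9, 10.4 with 10 to 19, 11.1 with 20 to 29 and 11.5 with 30 or more. The 5th percentile did not follow the median: it was 5.36 for lone intervals, 5.54 in windows with 5 to 9, 5.30 with 20 to 29 and 4.94 with 30 or more. Members made up 14.4% of the narrow intervals, 24.3% of their top 10% by LOD and 27.1% of the top 1%, but also 13.8% of the bottom 10%.

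Width moved with the score. Members were wider, with 8.57% of them over 100 nt against 3.36% of the others, and across members LOD and width had a Spearman coefficient of 0.617, both being measures of the same interval. At equal width the LOD difference was smaller than the 1.47 found over all widths. Between 15 and 25 nt the medians were 6.74 for members and 6.64 for others. Between 45 and 60 nt they were 11.4 and 10.7, and between 65 and 100 nt 14.5 and 13.6. Against intervals in windows with 10 to 19 the median difference was 0.771. Among intervals alone in their unfiltered site it was 1.38.

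**Figure D4:**
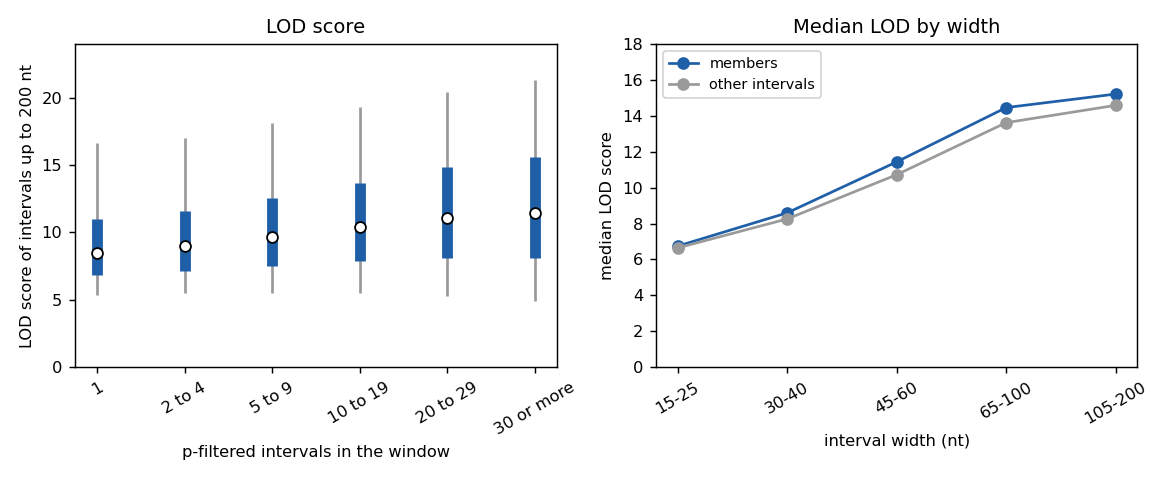
Left, LOD scores of narrow intervals (vertical axis, the authors' score) by the number of p-filtered intervals in their window, as the median (circle), the 25th to 75th percentile (thick bar) and the 5th to 95th percentile (thin line). Right, median LOD by interval width (nt) for members (blue) and other narrow intervals (grey), where members are higher in every width class, by 0.100 at 15 to 25 nt and by 0.841 at 65 to 100 nt.

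Strong and weak HuR intervals lay side by side in the same windows. The typical crowded window ran from a lowest member LOD of 4.85 to a highest of 21.7 (medians over windows), and the SD within a window had a median of 4.64, close to the 4.79 over all members. Differences between windows accounted for 5.86% of the variance of member LOD, where windows with no differences would give 4.13% on average. A member in the bottom 10% of LOD was present in 1893 crowded windows (85.1%) and a member in the top 1% in 745 (33.5%). Of all members, 9.57% were in that bottom 10% and 1.88% in that top 1%. A window with many members would therefore often hold 1 by number alone. Scores also varied somewhat with the distance to the nearest neighbour. The median LOD was 11.1 for members 10 nt from the next interval, 11.4 at 15 to 45 nt, the highest, and 10.5 at 500 nt or more. The shares found in all 3 replicates were 55.8%, 59.5% and 45.3% in these classes.

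Median scores of whole windows ranged from 6.42 to 17.2. The highest was at chromosome 17:15610001-15620000 on the plus strand, where 21 members scored between 9.66 and 29.1 and 85.7% of them were found in all 3 replicates. Next came chromosome 15:83410001-83420000 (minus) with 16.6, chromosome 12:34180001-34190000 (plus) with 16.3, chromosome 13:20640001-20650000 (plus) with 16.2 and chromosome 17:30790001-30800000 (plus) with 16.1. These 5 windows had 20 to 25 members, and 63.3% of all crowded windows held 20 to 24 intervals. Being picked as extremes, they do not show how score and number go together. Across all crowded windows median LOD and the number of intervals had a weakly positive Spearman coefficient of 0.138. The window with the lowest median was chromosome 8:104080001-104090000 on the plus strand, with 21 members in 4500 nt and a highest score of 20.7. Next came chromosome 19:9670001-9680000 on the minus strand with a median of 6.95, although 76.7% of its 30 members were found in all 3 replicates. A low median thus did not mean absence from the replicates. The others were chromosome X:14930001-14940000 (plus) with 7.12, chromosome 1:28820001-28830000 (plus) with 7.33 and chromosome 1:153610001-153620000 (plus) with 7.38. The X window had 9 replicate 1 sites and the lowest share of members in all 3 replicates of these 5.

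The highest-scoring members lay in windows with medians from 8.42 to 12.7, around the 11.1 of the median crowded window. At the top was chromosome 5:38940211-38940290 on the minus strand, 80 nt wide with a LOD of 34.9, rank 4 among all narrow intervals of the list. Its own window held 25 intervals with a median LOD of 11.3. The sites overlapping it stood at percentile 99.9 of their lists in each replicate. Then came chromosome 1:154201541-154201615 (plus) with 33.7, chromosome 20:34324331-34324395 (minus) with 33.4, chromosome 12:38719936-38720020 (plus) with 33.2 and chromosome 17:1265096-1265140 (minus) with 33.1. The last of these stood at percentiles 100.0, 92.0 and 99.9 in replicates 1, 2 and 3, so replicate 2 scored it less highly. Chromosome 10 had members at 70459661-70459715 (LOD 32.3) and 5759861-5759920 (31.9), both on the plus strand. At chromosome X:24561516-24561600 on the plus strand, with 31.1, the replicate percentiles were 98.7, 83.5 and 74.2. Chromosome 2:219458436-219458520 on the plus strand had 31.0. Chromosome 9:123562201-123562250 on the plus strand, with 30.8, stood at 90.8, 92.6 and 82.4, lowest in replicate 3. All 10 were found in all 3 replicates, as the choice required, and of the 1011 members in the top 1% by LOD, 10 were not. The same count was not made for other intervals. In the highest of 5 equal LOD classes, 90.4% of members and 90.1% of others were in all 3, so high recurrence there was not particular to members.

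Members overlapped sites of the replicate lists more often than other narrow intervals did. An overlap of at least 1 nt with replicate 1 was found for 56.5% of members, where it was 44.6% over all narrow intervals. For replicate 2 it was 92.7% against 84.1%, and for replicate 3 96.3% against 92.7%. All 3 lists were overlapped by 29891 members, or 55.6% (95% Wilson interval 55.2 to 56.0, counting error only), against 42.4% over all narrow intervals and 40.1% of the others. There were 18936 members that overlapped 2 lists, 4505 that overlapped 1 and 453 (0.842%) that overlapped none. The difference between members and others was 13.9 percentage points in replicate 1, 10.1 in replicate 2 and 4.18 in replicate 3 (9.39 ± 4.90, mean and SD, n = 3), and members were higher in all 3 of them. The p-filtered list was made from the same samples, so this overlap is not independent of how members were chosen.

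Replicate 1 was the list most often missing, for members and other intervals alike. Of the members found in 2 lists, 97.8% lacked replicate 1, against 94.9% of the others found in 2 lists. With replicate 1 left out of the count, 90.0% of all members were in both remaining lists. Scores and widths fell with the number of lists: the medians were 14 and 65 nt for members in all 3, 9.32 and 40 nt for 2, 6.52 and 30 nt for 1, and 5.58 and 20 nt for none.

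The excess was largest among low-scoring members. Narrow intervals were split into 5 equal classes by LOD. In the lowest class, 23.2% of members and 10.5% of others were found in all 3 replicates. In the next it was 23.9% and 10.8%, and in the middle class 40.2% and 32%. In the highest class, with LOD scores from 14 upward, the shares were 90.4% and 90.1%, a difference of 0.333 points. Crowded windows also had more bases called in each replicate: 8.5%, 21.9% and 22.1% of crowded-window bases were called in replicates 1, 2 and 3, against 3.51%, 10.1% and 11.1% in windows with 10 to 19 intervals. The part of this in the excess was not tested.

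**Figure D5:**
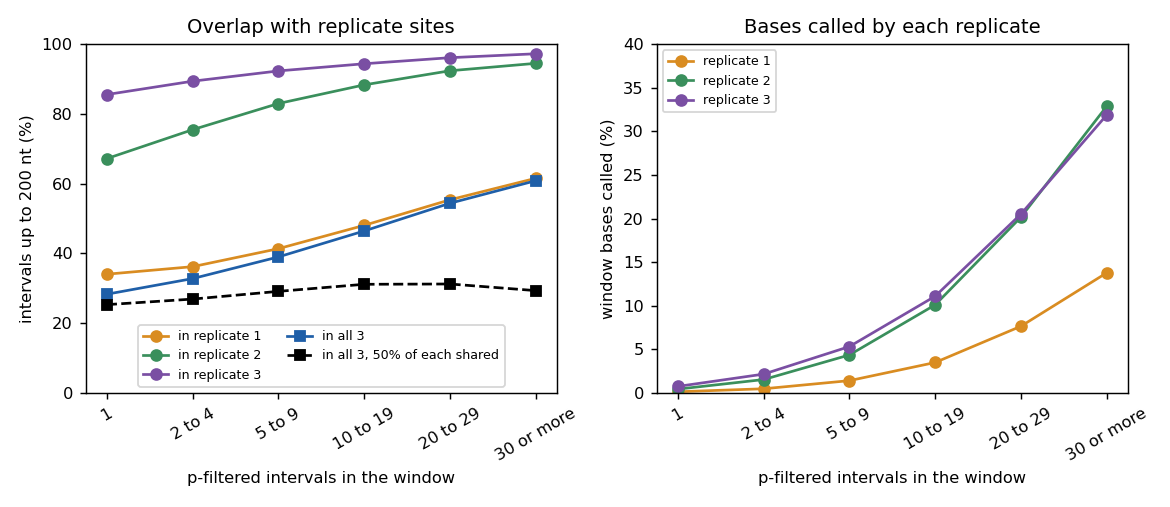
Left, share of narrow intervals (vertical axis, %) that overlap a site of each replicate, of all 3, or of all 3 with 50% of each interval shared, by the number of p-filtered intervals in the window, where the share in all 3 rises from 28.3% for lone intervals to 60.8% in windows with 30 or more and the 50% measure goes from 25.3% to 29.4%. Right, share of the bases of those windows that each replicate calls (vertical axis, %), which reaches 13.8%, 32.8% and 31.9% in replicates 1, 2 and 3 in windows with 30 or more.

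The excess shrank under a stricter match. When at least 50% of both intervals had to be shared, 30.9% of members and 29.3% of others matched in all 3 replicates, where the value over all narrow intervals was 29.5%. Members were not above the intervals in windows with 10 to 19, where the strict share was 31.2%. It was 25.3% for lone intervals and 29.4% in windows with 30 or more. Replicate 1 still gave members the higher share, by 10.6 points, but in replicates 2 and 3 members matched less often than others, by -7.10 and -8.59 points. In the highest class by LOD the strict shares were 55.2% for members and 70.2% for others. Replicate sites were wider around members: the sites that overlapped them had median widths of 50, 85 and 80 nt in replicates 1, 2 and 3, against 45, 60 and 60 nt for others. Of the members that overlapped a replicate 2 site, 25.1% shared it with another p-filtered interval, and in replicate 3 21.2% did, against 9.26% and 7.77% of the others. In replicate 1 these shares were 1.91% and 0.848%. With every replicate list limited to its best 186157 sites by LOD, 32.6% of members and 22.7% of others were found in all 3, and members were higher in every replicate.

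Seen by whole windows, a limit of 20 sites was reached more often in replicates 2 and 3 than in replicate 1, the smallest list. Crowded windows held a median of 14, 24 and 28 sites of replicates 1, 2 and 3, and 20 or more sites in 462 (20.8%), 1960 (88.1%) and 2175 (97.8%) of them. Over all windows with a site of that replicate the shares were 0.943%, 4.35% and 5.78%. The crowded windows were chosen from a list made from the same samples, and the part of list size in these shares was not tested. Sites in crowded windows were nevertheless a larger part of the smallest list, at 18.2% of the list in replicate 1, 13.8% in replicate 2 and 11.5% in replicate 3. Replicate 1 by itself had 482 windows with 20 or more sites, and 95.9% of these were among the crowded windows. The shares were 64.2% of 3055 such windows in replicate 2 and 42.3% of 5143 in replicate 3. All 3 replicates had 20 or more sites in 441 crowded windows, which held a median of 29 intervals and 72.0% of members in all 3 lists. In 33 crowded windows no replicate reached 20.

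Each of the 2224 crowded windows had at least 1 base called in all 3 replicates, with a median of 700 nt, and 1880 (84.5%) had 10 or more sites in every replicate. Such a base is likely in any window this full, since 42.4% of all narrow intervals overlapped all 3 lists. No counts for other windows were set beside these. The share of a window's members found in all 3 lists had a median of 55.0%, with a 5th to 95th percentile from 30.0% to 80.0%. It was under 20% in 21 windows, over 80% in 109, and never 0 or 100%, which would be unlikely with so many members per window. Fuller windows had slightly higher shares, with a Spearman coefficient of 0.201 across the 2224 windows, and windows with higher median LOD had higher shares, at 0.378, where both measures come from the same intervals. Site numbers per crowded window went together between replicates, with Spearman coefficients of 0.483 for replicates 1 and 2, 0.418 for 1 and 3 and 0.748 for 2 and 3. These are descriptions across windows, which share libraries and were all chosen for being full.

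The windows with the most bases called in all 3 replicates were not those with the most members. Chromosome 19:57800001-57810000 on the plus strand had 27 members and 5 wider intervals, 32 in all, which lay in 14 unfiltered sites and had a median gap of 40 nt. Its members had a median LOD of 9.01 and 77.8% were in all 3 lists. Chromosome 10:96360001-96370000 on the plus strand had 36 members, 94.4% of them in all 3 lists, the highest share of the 5 windows, and a median LOD of 13. Chromosome 2:179370001-179380000 on the plus strand had 39 members with 79.5% in all 3 lists and a highest LOD of 30.6. Chromosome 1:162490001-162500000 and chromosome 2:75880001-75890000, both on the plus strand, had 36 and 28 members with 86.1% and 85.7% in all 3 lists. All 5 were above the median window's 55.0%, and were picked for bases in all 3.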

How the data were processed

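HuR sites were measured in 3 immunoprecipitations, and the lists were used as deposited. The submitters' processing notes name cutadapt 1.0, TopHat2 2.0.8 and the build hg19, with no role for any of them. The deposited LOD score per interval is the authors' own, and the caller behind it and its settings are not given in the sources. Per the names of the deposited lists, scores exceed 0 and 1 combined list was limited at p 0.05. Interval starts (counted from 0, as in the lists) and ends are multiples of 5 nt, and printed starts are 1 higher. Depth per sample is unknown.

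Windows, overlaps (at least 1 nt, same strand), runs and gaps were computed in Python 3.11.15 with numpy 2.4.6, pandas 2.3.3 and scipy 1.17.1. On 37933 simulated intervals with known answers, the code recovered all 10 tested quantities exactly. Upstream and downstream follow the strand. A replicate or unfiltered site was paired with an interval by the most shared bases.

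The members and lists were chosen with earlier results of these data known. Alternatives covered the limit, window edges, overlap, score and width. Those for flanks and for intervals alone in their unfiltered site were chosen after seeing the data. Named windows, runs and members are the 10 windows with the most members, the 5 longest runs, the 10 highest members in all 3 lists, the 5 windows with the most bases in all 3 replicates, and the 5 highest and 5 lowest by median LOD. Planned results on sequence, annotation and gene lists were not run, since they need an hg19 genome or annotation.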

Additional observations from a re-analysis of the deposited data

How the results depend on the processing

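Alternatives gave 79 values for 11 results: 32 lay outside the bound used, 47 inside it, and 0 changed sign. This bound was 1.5-fold for counts, gaps and the LOD difference, the SD over replicates for differences and window shares, and otherwise a 95% Wilson interval, which treats neighbouring sites as independent and is narrow. The bound for the window share, 42.0 points, was too wide to fail easily. Counts, gaps and shares cannot change sign, so a change was possible only for the differences. The strict differences of -7.10 and -8.59 points in replicates 2 and 3 are not among these values. With 15 or more intervals per window there were 5330 windows, 105261 members and 990 runs, and members were in all 3 lists at 52.5%, unfiltered sites kept at 63.8% and members sharing an unfiltered site at 25.9%. With 30 or more the values were 304, 9985, 23, 60.8%, 68.9% and 40.5%, and the flank difference was 8.63 points. With intervals of 1 unfiltered site counted once there were 1152 windows, 30478 members and 137 runs, 54.3% of members were in all 3 lists and the flank difference was 4.61. The share in all 3 lists was 54% and 50.02% with replicate LOD above 1 and above 2, 30.9% with 50% of each interval shared, 32.6% with equal list sizes and 43.6% at 30 to 60 nt. The difference from other intervals was then 1.61 with 50% shared, 9.85 with equal list sizes and 9.65 at 30 to 60 nt. Without each replicate in turn the share ranged from 56.0% to 90.0%, the difference from 12.4 to 15 points and the window share from 54.5% to 93.0%. The LOD difference was 0.705 at 30 to 60 nt, 0.771 against windows with 10 to 19 and 0.972 on unfiltered scores. With at least 50% of the unfiltered site kept, 51.2% were kept. In replicate 3 sites the flank difference was 9.44. The cause was not tested for any of these, except that other limits change the number of windows by construction. Unknown depth limits all statements on sites missing from a replicate. No paired analysis was possible because only HuR samples have values in the files used, which leaves 1 group and no other to pair it with.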
